A study of Mus musculus with 12 samples.

Results

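DNMT3B N656I, a human DNMT3B in which an asparagine of the catalytic loop is replaced by isoleucine, was compared with wild-type (WT) DNMT3B for the CpG methylation it left in mouse embryonic stem (ES) cells. The comparison holds 4 of the 12 samples of the series: 2 lines that expressed DNMT3B N656I and 2 lines that expressed WT DNMT3B, all of them chosen by their labels. All 4 lines are DNMT triple knockout (TKO) ES cells, which lack Dnmt1, Dnmt3a and Dnmt3b. Each carries the human enzyme from the pPyCAGIZ vector after selection with Zeocin. Methylation was read by enhanced reduced representation bisulfite sequencing (eRRBS), in which DNA cut with MspI, BfaI and MseI is treated with bisulfite, which turns cytosines without a methyl group into a base sequenced as T. A second pair of WT DNMT3B lines, sequenced for another comparison of the same series and called the second WT set here, and 2 lines that expressed WT DNMT3A serve below as references.

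DNMT3A and DNMT3B set new methylation on unmethylated CpG sites, and DNMT1 copies existing methylation to the new strand after replication. Without DNMT1 the methylation of a site in these cells thus depends on the added enzyme, not on copying by DNMT1. Both de novo enzymes read the bases around the CpG, through a target recognition domain and a catalytic loop that contact the DNA on either side of the target cytosine. DNMT3A carries an isoleucine where DNMT3B has the asparagine that is changed in N656I. The counts hold no expression values, so neither the amount of enzyme in a line nor the ES cell identity was checked here. Less enzyme and a less active enzyme cannot be told apart from these counts. The study shows a western blot of WT and N656I DNMT3B in TKO lines and in vitro assays of both, which were not used here.

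The sequences that carried the largest differences are shown first, each as a CpG (in capitals) with 2 bases on either side, so that the bases compared below can be seen. They are read in the mouse genome (GRCm38) and stand for themselves and their reverse complement, since both strands of a site were counted together. The first 4 had the lowest and the last 5 the highest ratio of N656I to WT methylation among the 136 such 6-base sequences.
lowest ratio, rank 1: aaCGtt
lowest ratio, rank 2: aaCGca
lowest ratio, rank 3: agCGct
lowest ratio, rank 4: aaCGct
highest ratio, rank 132: caCGgc
highest ratio, rank 133: gcCGgc
highest ratio, rank 134: ctCGag
highest ratio, rank 135: ccCGag
highest ratio, rank 136: ctCGgc
The 4 sequences at the low end all have an A at the second position before the CpG, which is a T at the second position after it on the other strand. Of the 5 at the high end, 4 have a C at the second position before the CpG, which is a G after it on the other strand, and gcCGgc has a G before and a C after.

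Autosomal CpG sites were covered by 30619906 and 24384697 reads in the N656I lines and by 20073622 and 15916823 reads in the WT lines. These reads fell on 6375640 and 5188274 sites in the N656I lines and on 4982816 and 1005962 sites in the WT lines. WT replicate 2 thus stood apart, with 15.8 reads per covered site against 4.03 to 4.80 in the other 3 lines. Among its sites with at least 10 reads and any methylation, 57.5% were methylated in every read, against 0.545% to 3.14% in the other 3 lines. In the second WT set this share was 19.3% and 4.04%, so that its replicate 1 had part of the same feature. Since single molecules were not tagged before PCR, reads are not independent molecules and the error used is the spread over lines, and the main results are also given without WT replicate 2 or with the second WT set.

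For each covered autosomal site the fraction of reads that were methylated was taken, and the methylation level is its average over the sites of a line. This level was 14.4% and 11% in the N656I lines against 16.4% and 15.3% in the WT lines. The N656I lines were the lower ones without overlap, with means of 12.7% ± 2.41 and 15.8% ± 0.797 (SD, n = 2), a difference of -3.12 percentage points (p = 0.333 in a two-sided exact permutation test, which cannot give less with 2 lines against 2). The N656I lines differed from each other by more than the higher of them differed from the WT lines, and the difference was -1.42 points without N656I replicate 2 and -4.83 points without N656I replicate 1. In the second WT set the levels were 13.8% and 12.7%, between those of the N656I lines, and the difference from that set was -0.522 points. The 2 sets of WT lines carry the same enzyme, yet both lines of the second lay below both lines of the first, as the N656I lines did. The lower overall level of N656I was therefore seen against the first WT set and not against the second.

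To see whether the difference was confined to a kind of sequence, sites were grouped by CpG density, the number of CpG sites in the 200 bp around a site. At isolated sites, with no other CpG in that window, the level was 14.9% and 11.6% in the N656I lines and 17.6% and 16.7% in the WT lines. The highest levels were at sites with 3 or 4 CpGs in the window, 16.8% and 12.9% against 19% and 17.8%. At dense sites, with 12 or more CpGs as in CpG islands, the level was 2.07% and 1.67% in the N656I lines and 2.17% and 2.92% in the WT lines. The N656I lines were below the WT lines without overlap in 6 of the 6 density classes (100%), and the ratio of the means ran from 0.734 at dense sites to 0.843 at sites with 8 to 11 CpGs. The place of dense sites in this order rested on WT replicate 2: against WT replicate 1 alone the ratio rose with density, from 0.751 at isolated to 0.862 at dense sites. On the sites with 10 or more reads in all 4 lines, 4 classes were lower, that of 8 to 11 CpGs overlapped, and dense sites (1520 of them) were higher in N656I, with 2.27% and 2.11% against 1.97% and 1.84%. The second WT set had 2.58% and 2.51%, each line averaged only over those of the 1520 sites where it had 10 reads itself. The sets of sites can thus differ, so the direction against the second WT set is not settled by these values. Over all covered sites no density class was separated from the second WT set, and the ratios ran from 0.951 to 0.99.

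**Figure D1:**
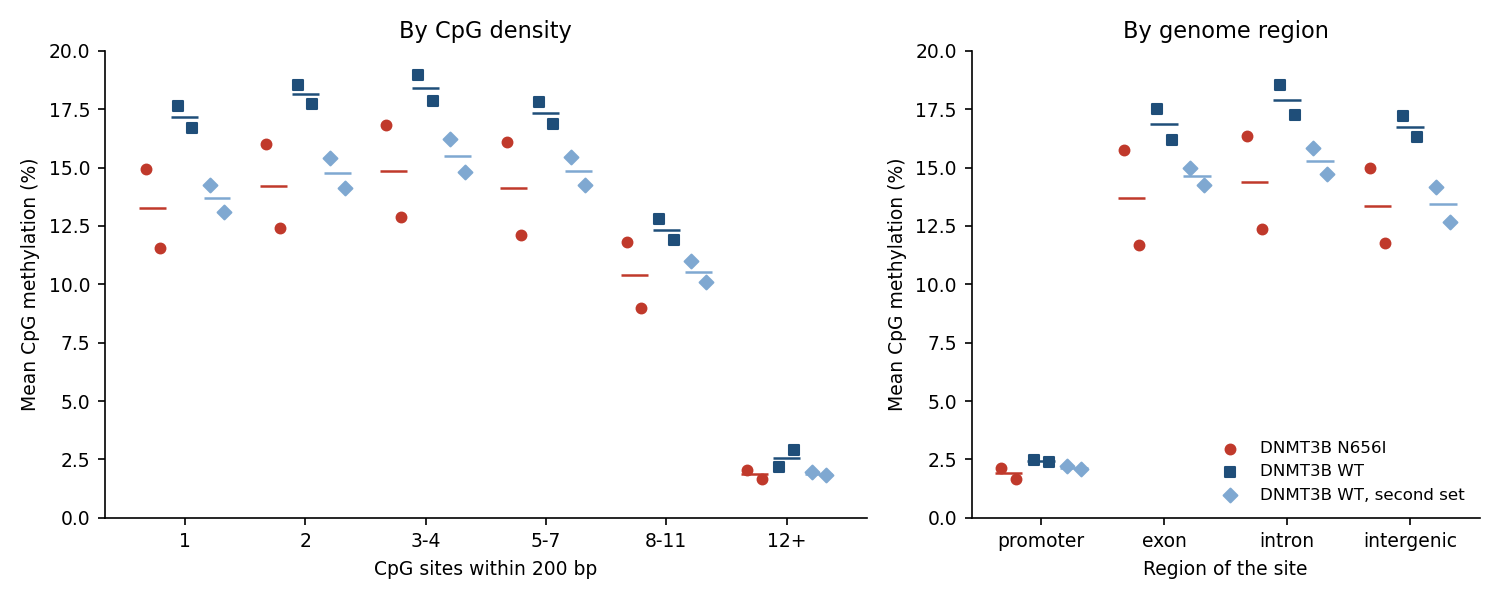
Mean CpG methylation in percent (vertical axis) by the number of CpG sites within 200 bp (left) and by genome region (right), with 1 point per line and a bar at the mean of the 2 lines. The N656I lines lie below both WT lines in each class shown, the second WT set lies between the N656I lines in each density class, and dense sites and promoters lie near the floor in all lines.

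The same order was seen in the regions of the genome. In promoters, from 1000 bp before to 500 bp after the transcription start of a protein-coding gene, the level was 2.14% and 1.68% in the N656I lines against 2.49% and 2.40% in the WT lines. Introns had the highest levels, 16.4% and 12.4% against 18.5% and 17.3%, and exons had 15.7% and 11.7% against 17.5% and 16.2%. Intergenic sites had 15.0% and 11.7% against 17.2% and 16.3%. In soft-masked repeats the lines overlapped, with 15.8% and 12.3% in the N656I lines and 17.6% and 15.8% in the WT lines, so that 5 of the 6 classes (83.3%), repeats and non-repeats included, were separated. Each of the 19 autosomes had lower methylation in both N656I lines than in both WT lines, with ratios from 0.784 to 0.818. Against the second WT set, no region class and no chromosome was separated.

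Around transcription starts, where methylation is normally absent from active promoters, all lines showed the same trough. In the 250 bp after the start the N656I lines had 1.36% and 1.14% and the WT lines 1.54% and 1.5%, rising to 15.6% and 11.8% against 18.1% and 15.7% in the last bin before 5000 bp downstream. Both N656I lines were below both WT lines in 38 of 40 bins of 250 bp, and below all 4 WT lines in 3 of them. The ratio of N656I to WT was 0.820 in the bin after the start and 0.812 in the last bin, and at the start the N656I lines overlapped with the second WT set.

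**Figure D2:**
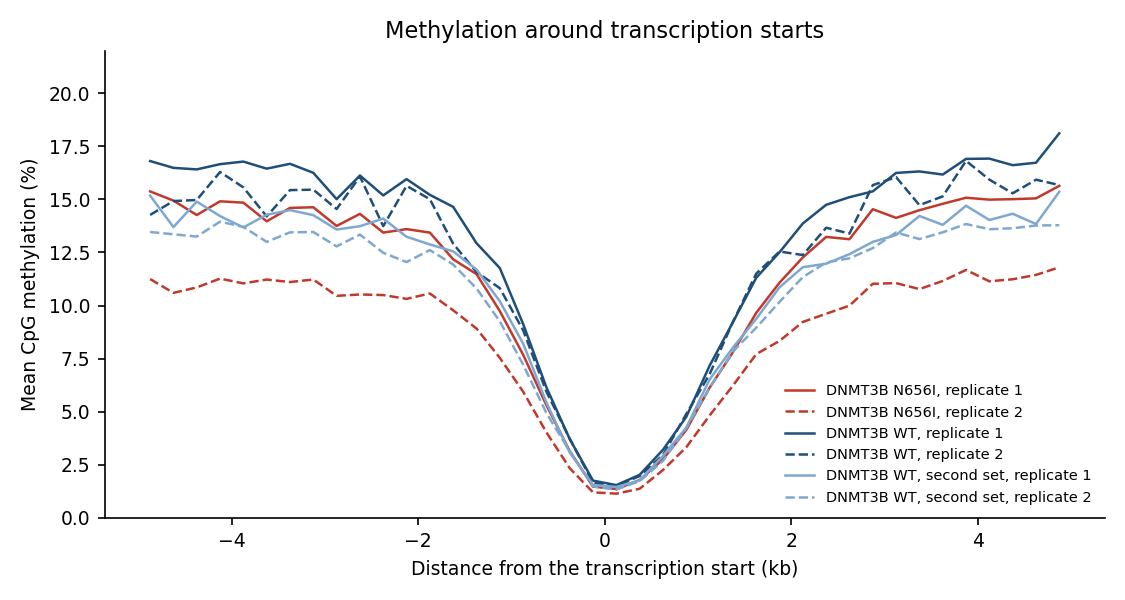
Mean CpG methylation in percent (vertical axis) by distance from the nearest transcription start of a protein-coding gene in kb (horizontal axis, bins of 250 bp), with 1 line per cell line. All DNMT3B lines fall to under 2% at the start, N656I replicate 2 runs lowest in each bin, and N656I replicate 1 lies close to the second WT set.

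A measure that is not changed by a lower level at all sites alike is the share of a base, the mean level of the sites that carry it at a given distance from the CpG, divided by the sum over the 4 bases. At 2 bases after the CpG, the share of T was 19.3% and 19% in the N656I lines and 23.5% and 23.3% in the WT lines. The share of A at this position was 23.9% and 23.7% against 27.2% and 27.4%. The share of G was 31.1% and 31.6% against 25.8% and 25.8%, and that of C was 25.7% and 25.8% against 23.6% and 23.5%. In WT cells A was thus the most methylated base at this position, followed by G, whereas in N656I cells G led, followed by C, and T came last. All 4 shares (100%) were separated, with differences of 5.56 points for G, 2.21 for C, -3.50 for A and -4.27 for T, against SDs between lines of 0.0431 to 0.292 points (p = 0.333 for each base in a two-sided exact permutation test, again the least it can give). The 4 shares sum to 100%, so they are not independent of each other.

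The second WT set had shares close to those of the first, with 27.0% and 27.0% for A, 23.8% and 23.8% for C, 26.0% and 26.1% for G and 23.2% and 23.1% for T. The 2 WT sets did not overlap either, since they differed by a little for each base, so the absence of overlap alone does not set N656I apart, whereas the size of the difference was much larger between N656I and WT than between the WT sets. Unlike the overall level, the base shares at this position separated the N656I lines from all 4 WT lines. In the DNMT3A lines the share of A was 28.8% and 28.6% and that of G was 23.7% and 23.8%, on the other side of WT DNMT3B from N656I for both bases. For C, with 24.03% and 24.2%, the DNMT3A lines lay above all 4 WT DNMT3B lines as the N656I lines did, and for T, with 23.5% and 23.4%, they overlapped with WT DNMT3B.

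At 3 bases after the CpG the differences were smaller. The share of G was 22.8% and 22.8% in the N656I lines and 24% and 23.7% in the WT lines, a difference of -1.07 points. The shares of A (28.2% and 28.5% against 27.7% and 27.9%) and of C (25.4% and 25.1% against 24.8% and 24.6%) were higher in the N656I lines by 0.575 and 0.553 points, and those of T overlapped. Against the second WT set the difference for C was 0.241 points, and T was higher in the N656I lines by 0.387 points without overlap. At this position 3 of the 4 shares (75%) were separated, also from all 4 WT lines (two-sided exact permutation p = 0.333 for each). The 2 WT sets did not overlap either for C (means of 24.7% and 25.0%), G (23.9% and 24.1%) or T (23.7% and 23.2%). The absence of overlap alone thus does not set N656I apart at this distance, and for C the N656I mean was 25.2%. A was the leading base at this distance in all N656I and WT lines.

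**Figure D3:**
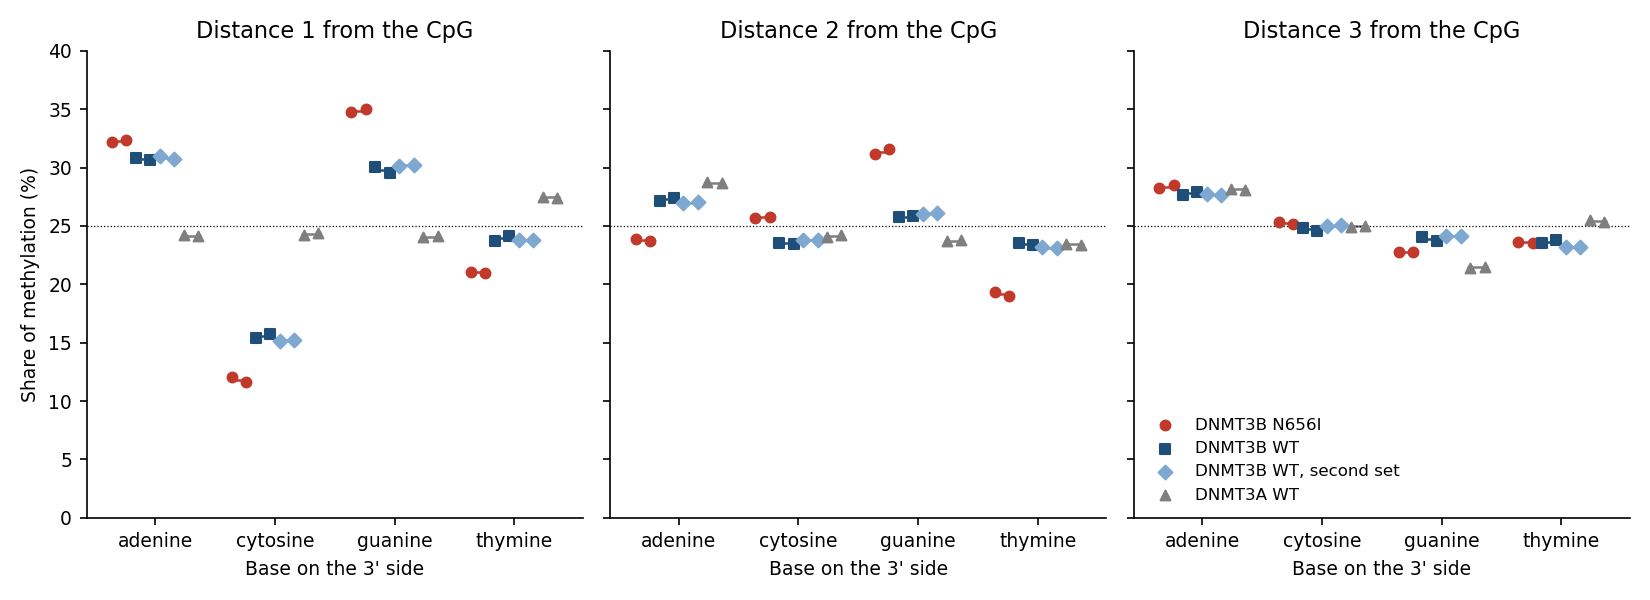
Share of methylation in percent (vertical axis) of each base at 1, 2 and 3 bases after the CpG, with 1 point per line, a short bar at the mean of the 2 lines and a dotted line at 25%, where all bases are equal. At distance 2 the N656I lines stand apart from the 4 WT DNMT3B lines for all 4 bases, with guanine at 31.1% and 31.6% and thymine at 19.3% and 19%, and at distance 3 all lines are close together; at distance 1 the N656I lines also stand apart, with guanine at 34.7% and 35.0% against 30.0% and 29.5% in the WT lines.

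Taking the bases on both sides together, sites were grouped by the pair at the second position before and the second position after the CpG, which gives 10 pairs after merging the strands. Sites with T before and A after had the highest methylation of the 10 pairs in WT cells, 19.9% and 19%, and were at 13.3% and 9.94% in the N656I lines. Sites with A before and T after were at 7.88% and 5.83% in the N656I lines against 14.3% and 13.0% in the WT lines, a ratio of 0.502. Sites with C before and G after went the other way, with 21.1% and 16.6% in the N656I lines against 17.6% and 16.6% in the WT lines, a ratio of 1.10 in which the lines overlapped. For the last pair both N656I lines were above both lines of the second WT set, which had 15.1% and 14%.

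The ratio of the methylation at sites with T before and A after to that at sites with C before and G after, chosen after the values were seen, summarises this within each line. It was 0.632 and 0.600 in the N656I lines, against 1.13 and 1.14 in the first WT set and 1.10 and 1.09 in the second. In the DNMT3A lines it was 1.45 and 1.43. A ratio within a line is not affected by a lower level at all sites alike, and it remained below 0.8 in the mean of the N656I lines and above 1 in that of the WT lines under each minimum number of reads tried, on the sites covered in all 4 lines and without CCGG sites.

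**Figure D4:**
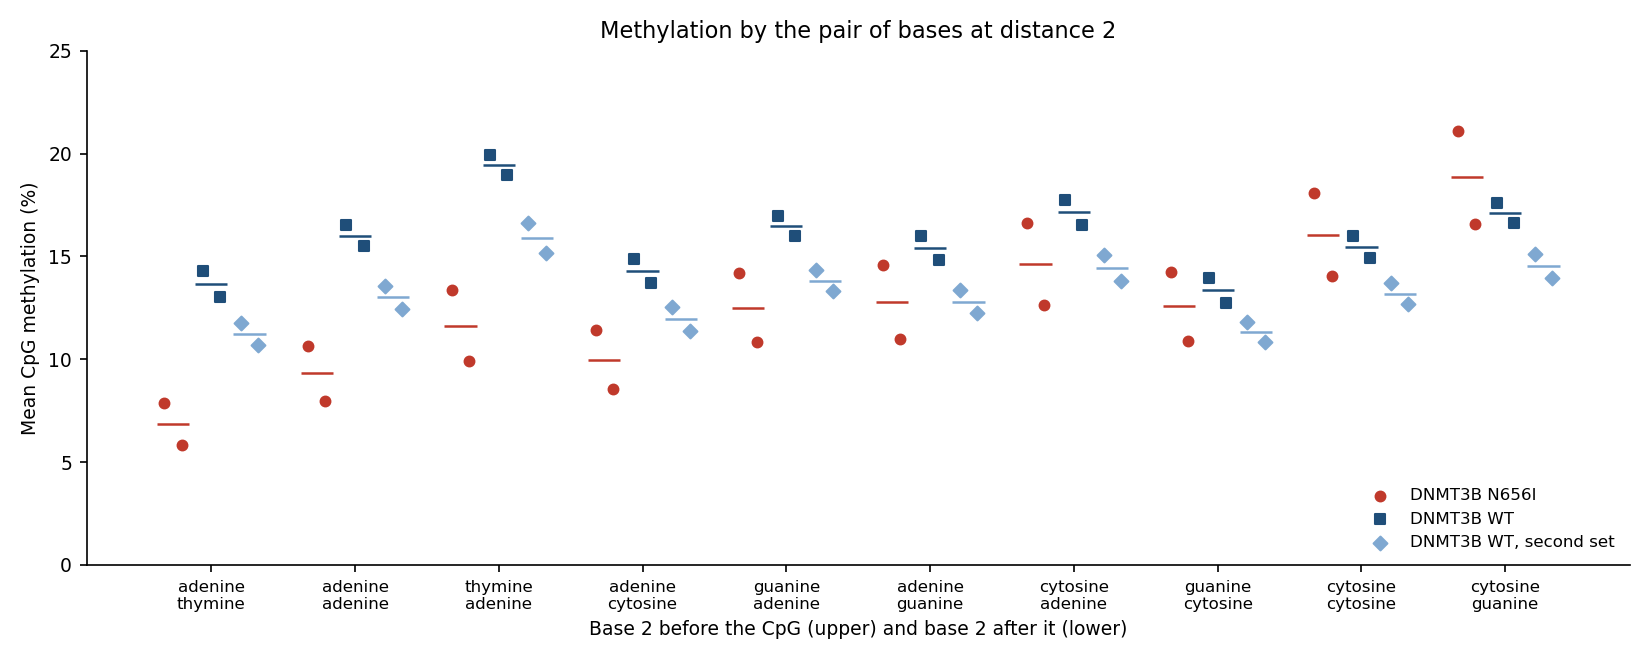
Mean CpG methylation in percent (vertical axis) for the 10 pairs of bases at the second position before (upper label) and after (lower label) the CpG, ordered by the ratio of N656I to WT, with 1 point per line and a bar at the mean. At the left, the N656I lines lie well below both WT sets, while at the right, with cytosine before and guanine after, they reach 21.1% and 16.6%, overlap with the first WT set and lie above the second.

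The order of the bases by this ratio at distance 2 was T, A, C and G from lowest to highest in the 5 classes below 12 CpGs, and it was A, T, G and C at dense sites, but there also T, A, C and G against WT replicate 1 alone. With T at the second position after the CpG, the ratio of N656I to WT was between 0.638 and 0.694 in the 6 density classes, and both N656I lines were below all 4 WT lines in each of them. With G at this position the ratio was between 0.958 and 0.968 in the 5 classes below 12 CpGs and 0.750 at dense sites, where WT replicate 2 was high. Against the second WT set the ratio with G was above 1 in all 6 classes, from 1.08 at dense to 1.197 at isolated sites, where both N656I lines were above both lines of that set. At isolated sites, for example, sites with G were at 19.7% and 15.4% in the N656I lines against 18.7% and 17.9% in the WT lines, and sites with T at 11.2% and 8.44% against 16% and 14.8%.

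The base next to the CpG moved with the ratio as well. For sites with G before the CpG, and T at both positions after it, the level was 5.2% and 3.77% in the N656I lines against 13.1% and 12.2% in the WT lines, a ratio of 0.355. With A before and T at both positions after, it was 6.14% and 4.35% against 14.2% and 13.5%, a ratio of 0.378. The largest ratio among the 64 combinations of inner bases and outer 3' base was that of C before, and A and then G after, with 30.9% and 24.3% in the N656I lines against 23.3% and 21.6%, a ratio of 1.23. That was the single combination in which both N656I lines were above both WT lines, while in 47 they were below and in 16 the lines overlapped. With the second WT set in its place, they were below in 30 and above in 7.

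The 6-base sequences printed above show how far this went. For aaCGtt the N656I lines had 3.73% and 2.56% and the WT lines 13.3% and 12.7%, so that the ratio of means was 0.242, the lowest of the 136. The second WT set had 11% and 9.53% at aaCGtt, and the DNMT3A lines 27.3% and 27.5%. For aaCGca the N656I lines had 4.60% and 3.14% against 12.7% and 12.3%, and for agCGct 2.22% and 1.72% against 6.30% and 6.32%. All 3 were below each of the 4 WT lines.

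At the other end, ctCGgc had 35.4% and 28.5% in the N656I lines and 24.5% and 22.6% in the WT lines, a ratio of 1.36. The second WT set had 21.6% and 19.95% at ctCGgc. For ccCGag the levels were 35.5% and 28.2% against 25.8% and 23.5%, and for the palindrome ctCGag 35.0% and 27.6% against 24.9% and 24.3%. These sites were thus more methylated in both N656I lines than in any WT DNMT3B line. Of the 136 6-base sequences, both N656I lines were below both WT lines in 95, above both in 5 and overlapped in 36, and they were below all 4 WT lines in 69 and above all 4 in the same number of 5. The median ratio was 0.683.

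To test single contexts, NNNCGNNN sequences, with 3 bases on either side, were tested with limma, using log2 odds, with each line centred on its median context, so that a context is called higher or lower relative to the others of its line. Of 2079 contexts with at least 20 covered sites in each line, 1107 (53.2%) passed an adjusted p (Benjamini-Hochberg) of 0.05, 640 of them (30.8%) higher and 467 (22.5%) lower in N656I. Without the centring, where the lower overall level counts as well, 703 passed, 1 of them higher and 702 lower, and the median change moved from 0.07 to -0.57. The number of calls fell to 105 with a quasi-binomial regression and to 411 on sites covered in all 4 lines.

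The contexts moved by their bases at distances 1 and 2. By the pair next to the CpG, 109 of 136 contexts with C before and G after rose and 3 fell (median 0.55), and 51 of 136 with G before and C after fell and 1 rose (median -0.44). The pairs at distance 2 moved by a similar amount. Of 136 contexts with T before and A after, 64 fell and 2 rose, with a median log2 change of -0.30. Of 136 with A before and T after, 78 fell and 1 rose, with a median of -0.47. Of 136 with C before and G after, 86 rose and none fell at this threshold, with a median of 0.64, and of 256 with C before and C after, 145 rose and none fell, with a median of 0.51. The median over all contexts was 0.07. By the pair at distance 3, in contrast, the medians of the 10 classes lay between -0.03 and 0.18.

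**Figure D5:**
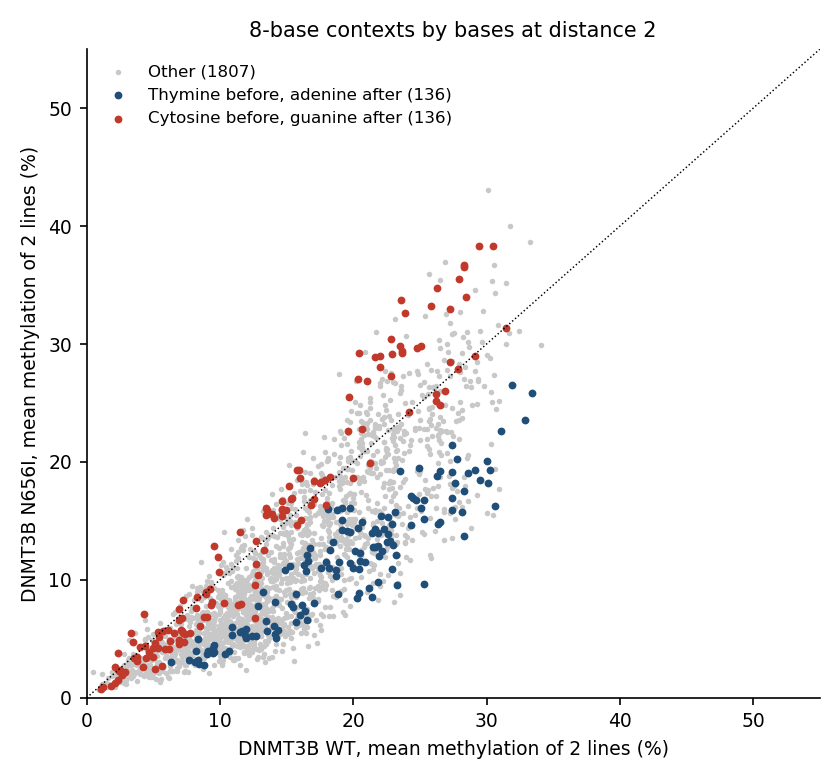
Mean methylation in percent of the 2 WT lines (horizontal axis) and the 2 N656I lines (vertical axis) for 2079 contexts, 1 point each, with a dotted line where both are equal. Contexts with thymine before and adenine after at distance 2 (blue, 136) lie below the dotted line, and those with cytosine before and guanine after (red, 136) lie on both sides of it at low levels and mostly above it where WT exceeds 20%.

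The 5 contexts with the largest decrease all hold aaCGtt and differ in their outermost bases, whereas those with the largest increase have no such core in common. They are shown with the CpG in capitals.
decrease, first: taaCGtta
decrease, second: aaaCGttg
decrease, next: aaaCGttc
decrease, next: aaaCGttt
decrease, next: aaaCGtta
increase, first: cgtCGcga
increase, second: gcgCGagc
increase, next: tctCGgca
increase, next: accCGaga
increase, next: acgCGgcc
At taaCGtta methylation was 4.0% and 2.27% in the N656I lines and 14.7% and 16.5% in the WT lines, a log2 change of -1.92 ± 0.18 (SE, adjusted p = 0.00118, limma). At aaaCGttg it was 2.76% and 1.97% against 11.8% and 12.1%, a log2 change of -1.86 ± 0.14 (adjusted p = 0.000778). With the quasi-binomial regression taaCGtta was at -1.55 (adjusted p = 0.0516) and was not called, and 2 of the 11 named contexts called here, aaaCGttc and aaaCGtta, were called. The other 3 decreases were between -1.67 and -1.57, with WT levels of 8.46% to 13.5% and N656I levels of 1.89% to 3.55%.

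Among the increases, tctCGgca and accCGaga were well methylated. At tctCGgca the N656I lines had 47.2% and 38.9% and the WT lines 31.5% and 28.7%, a log2 change of 1.45 ± 0.07 (adjusted p = 0.000595). The second WT set had 29.6% and 27.3% and the DNMT3A lines 46.9% and 48.0% at this sequence. At accCGaga the levels were 37.1% and 30.3% against 26.7% and 20.4%, a log2 change of 1.37 ± 0.15 (adjusted p = 0.00141).

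The other 3 increases were at sequences with more than 1 CpG and low methylation, and their size moved with the WT lines used. At cgtCGcga the N656I lines had 2.45% and 2.01% and the WT lines 0.720% and 0.202%, the last from 33 sites, while the second WT set had 1.92% and 2.74%. At gcgCGagc the levels were 6.60% and 4.39% against 5.17% and 1.48%, and at acgCGgcc 5.57% and 5.38% against 5.30% and 1.96%. Against the second WT set the log2 change of cgtCGcga was 0.19 and was not called, and without WT replicate 2 the changes of gcgCGagc and acgCGgcc were 0.74 and 0.72, in place of 1.56 and 1.34.

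A pair of contexts was followed because the study uses them as examples. attCGatg, the consensus of human satellite II repeats, was at 14% and 11.1% in the N656I lines against 24.1% and 20.8% in the first WT set and 19.6% and 19.2% in the second. Its log2 change was -0.38 ± 0.11 (adjusted p = 0.0258), with both N656I lines below all WT lines. aggCGccc, which was at 33.8% and 35.5% in the DNMT3A lines, was at 2.69% and 1.76% in the N656I lines against 3.25% and 2.49% in WT lines, and did not pass the test (log2 change 0.23 ± 0.24, adjusted p = 0.449).

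To take out the base next to the CpG, each line was also centred within each of the 10 inner NCGN cores, so that differences at distances 2 and 3 alone can give a call. Of 2079 contexts 900 (43.3%) passed, 495 (23.8%) higher and 405 (19.5%) lower, but no more than 116 did with a minimum of 10 reads and 12 with the quasi-binomial regression. By pairs at distance 2, 89 of 136 contexts with A before and T after fell and none rose (median -0.56), and 86 of 136 with C before and G after rose and none fell (median 0.63). Of 136 with T before and A after, 67 fell and 4 rose, with a median of -0.39. The median over all contexts was 0.06.

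These calls depended on both N656I lines: none remained without N656I replicate 1, where 734 had an unadjusted p under 0.05, or without N656I replicate 2, where 696 did. None remained either on sites covered in all 4 lines, where 610 had an unadjusted p under 0.05. The 900 contexts kept their sign without either N656I line, and 874 of the 895 that could be tested kept it on the shared sites. Since the 900 were chosen for a difference between these same lines, this was largely fixed by the choice and does not make up for the lost calls. With the second WT set in place of the first, 1119 passed, and 792 of these were among the 900.

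The named contexts of this test were of the same kinds. The decreases were aaaCGgaa (log2 change -1.71), taaCGtta (-1.55), atcCGttg (-1.52), aaaCGttg (-1.49) and aaaCGgag (-1.46), each with adjusted p between 0.00730 and 0.00838 (limma). At aaaCGgaa methylation was 4.37% and 3.08% in the N656I lines against 13.7% and 13.0% in the WT lines. The increases were cgtCGcga (1.97), gcgCGagc (1.95), actCGcgc (1.74), acgCGcgt (1.71) and ccgCGtcg (1.56), all with a further CpG in the sequence and with methylation under 10% in the N656I lines, and in 4 of these 5, all but gcgCGagc, the N656I lines were not above both lines of the second WT set. With the replicate number as a block, ccgCGtcg (adjusted p = 0.0604) and attCGatg (adjusted p = 0.0719) were not called by limma. None of these 12 contexts, attCGatg and aggCGccc included, was called with the quasi-binomial regression. On this scale attCGatg was at -0.42 ± 0.11 (adjusted p = 0.0385) and aggCGccc at 0.84 ± 0.19 (adjusted p = 0.0243).

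No tile and no gene body passed the test. Of 19266 tiles of 100 kb with at least 20 covered sites in each line, 0 (0%) passed an adjusted p of 0.05 with limma, with each line centred on its median tile, and 591 had an unadjusted p under 0.05. A quasi-binomial regression called 0 tiles as well, with 536 at an unadjusted p under 0.05. Of 6179 bodies of protein-coding genes, from 2000 bp after the start to the end, 0 (0%) passed, with 219 at an unadjusted p under 0.05, and the quasi-binomial regression called 0, with 190. In data simulated from these lines limma recovered none of the changed tiles or gene bodies, and the quasi-binomial regression was not tried there. The absence of calls thus says little about changes in single tiles or genes. WT replicate 2 set the number of genes that could be tested, 6179 against 13215 without it.

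The raw levels of gene bodies followed the overall level, with both N656I lines below both WT lines in 2517 of the 6179 genes (40.7%) and above both in 93. The counts were 1112 lower and 436 higher against the second WT set, and against WT replicate 1 alone 4563 and 200 (alternatives chosen after seeing the data). Of 30 long neuronal genes, which are silent in ES cells and hold many sites, 24 were lower in this sense, with a median log2 change of -0.06 relative to the line medians, against -0.01 over all genes. Of these 30, 1 was lower and 4 were higher against the second WT set. Of 9 imprinted genes that could be tested, 4 were lower (median 0.01), of 10 germline genes 2 (median 0.20), of 5 pluripotency genes 1 (median 0.00), of 12 genes of the DNA methylation machinery 4 (median -0.04), and of 6 strongly transcribed genes 1 (median 0.14). In these 5 lists 0 to 2 genes were lower against the second WT set. In none of the 6 lists did a gene pass the adjusted threshold.

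Values of single genes show how wide the spread was. The body of Tenm2, a teneurin of synaptic adhesion and the gene with the most sites in its list (chromosome 11, 36006656 to 37235964), had 16.6% and 13.9% in the N656I lines against 19.11% and 18.1% in the first WT set and 14.7% and 12.3% in the second. Lsamp, a neuronal cell adhesion gene on chromosome 16, had 11.6% and 9.63% against 14.4% and 15.9%, and the second WT set had 9.90% and 9.56%. Xrcc5, a subunit of the Ku complex of DNA repair, had 26.8% and 18.2% against 25.3% and 26.8%, so that the lines overlapped. Smarca4, the ATPase of a chromatin remodelling complex, had 26.7% and 15.9% against 27.3% and 37.9%, where the last value rests on 65 sites, and the second WT set had 31.2% and 30.7%. For Tenm2 and Lsamp the N656I lines thus overlapped with the second WT set, and for Smarca4 they were below both sets.

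Among imprinted genes, Kcnq1, a potassium channel gene whose intron holds the start of an antisense RNA, had 14% and 11.8% against 16.2% and 13.9%. Grb10, an adaptor of growth factor receptors, had 9.68% and 8.36% against 11.3% and 23.2%, and 12.2% and 8.05% in the second WT set. Of the germline genes, Tex14 had 14.9% and 11.3% against 17.1% and 21.3% (12.4% and 12.5% in the second WT set), and Tdrd9, a helicase of the piRNA pathway, 24.9% and 15.6% against 20.6% and 14.3%. The pluripotency genes Esrrb and Jarid2 had 12.9% and 9.39% against 14.6% and 12.5%, and 9.47% and 8.12% against 11.8% and 10.2%. The second WT set overlapped with the N656I lines for both, with 11.3% and 9.51% for Esrrb and 7.76% and 10.8% for Jarid2.

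Of the methylation machinery, Kdm2b, whose product binds unmethylated CpG islands, had 11.8% and 8.35% against 15.5% and 15.1% (9.98% and 11.8% in the second WT set), and Mbd5 had 15.2% and 10.6% against 14.5% and 18.8%. Tet1, which oxidises methylated cytosine, had 10.4% and 6.34% against 15.6% and 13.1%, and 10.7% and 8.57% in the second WT set. The disrupted genes Dnmt1 and Dnmt3a had 20.4% and 15.8% against 16.7% and 18.8%, and 14.8% and 15.0% against 15.8% and 16.9%. Dnmt3b, Dnmt3l and Uhrf1 had 7 to 11 covered sites in WT replicate 2 and were not tested.

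Single stretches show the data behind these levels. The 2 stretches of at most 150 bp with the most sites of 10 or more reads in all 4 lines, outside exons and repeats, were both rich in CpG. They are printed from GRCm38, forward strand, with each CpG in capitals.
Siah1a promoter, chr8:86745554-86745686: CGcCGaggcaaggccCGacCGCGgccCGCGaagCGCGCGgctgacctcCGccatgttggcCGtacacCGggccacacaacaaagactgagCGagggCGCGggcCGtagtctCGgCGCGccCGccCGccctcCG
Akap7 intron, chr10:25296982-25297048: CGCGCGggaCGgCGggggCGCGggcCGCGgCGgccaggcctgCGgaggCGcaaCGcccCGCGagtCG
Siah1a encodes a ubiquitin ligase and Akap7 an anchoring protein of protein kinase A. Over the 23 sites of the first, the mean level was 0% and 0.334% in the N656I lines against 0.311% and 0.128% in WT lines, and over the 16 sites of the second 0.568% and 0% against 0% and 0.481%. At these depths no difference was detectable in either, and single reads make up all of the methylation seen.

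A further pair of stretches was chosen after seeing the data, under the same limits, as the ones with the most sites at a level of 20% or more over the reads of all 4 lines.
intergenic, chr8:61476735-61476768: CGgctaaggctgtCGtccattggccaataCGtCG
intergenic, chr4:153309954-153309989: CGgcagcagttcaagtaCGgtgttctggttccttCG
In the first, with 4 sites, the mean level was 25.0% and 34.6% in the N656I lines and 19.6% in WT replicate 1, while all 4 sites were methylated in each of the 13 reads of WT replicate 2. In the second, with 3 sites, it was 28.2% and 48.5% in the N656I lines, 28.6% in WT replicate 1 and 3.03% in WT replicate 2. Single sites thus varied between lines by far more than the averages over contexts did, and no statement about N656I is drawn from them.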

How the data were processed

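The authors trimmed the read pairs with Cutadapt, aligned them with Bismark 0.18.1 and Bowtie 1.2 to mm10 (GRCm38), discarded pairs with several methylated non-CpG cytosines in a read, and collapsed both strands. The deposited values are raw counts of methylated reads and of all reads per CpG site and line, not normalized and not pooled. The version of Cutadapt differs between the sources used here, and whether the non-CpG filter removed more pairs from some lines was not tested. Each of the 20383623 autosomal sites was checked to be a CG in GRCm38. Sites with 1 or more reads were used, with the study's minimum of 10 reads as an alternative, and regions follow the GENCODE annotation of GRCm38.

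Features with at least 20 covered sites in each line were compared with limma 3.58.1 (R 4.3.3), with variances shrunk along the mean level, on log2((m + o)/(1 - m + o)), where o is 0.5 divided by the number of sites, with a Benjamini-Hochberg adjusted p of 0.05 as the threshold. Single values were compared with an exact permutation test (scipy 1.17.1). The limma fits were tested on simulated data, where they recovered most of the changed contexts but none of the changed tiles or gene bodies. The quasi-binomial regression was not tested in this way. The named contexts were the 5 with the largest increase and the 5 with the largest decrease that passed it with no overlap of the lines on the centred scale of the test, plus ATTCGATG and AGGCGCCC, and the named genes were a fixed set of enzymes and the 2 members of each list with the most sites. The members, contexts, gene lists and tests were chosen with earlier results of these data known. WT lines were assigned to a set by the suffix of the replicate number in their labels. With 2 lines per group, p-values measure the spread between these lines. Chromosomes X and Y, non-CpG cytosines and the spike-in were not analysed here.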

Additional observations from a re-analysis of the deposited data

How the results depend on the processing

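The level difference of -3.12 points kept its sign in all alternatives, ranged from -4.83 to -1.42 when each line was left out in turn, and was -3.12 with the replicate number as a block (-4.26 and -1.98 in the same-numbered pairs). Replicate numbers did not pair the lines: the correlation of same-numbered deviations was between 0.005 and 0.019. Against the second WT set, or all 4 WT lines, 0 density and 0 region classes were separated, in place of 6 and 5. With each line left out these counts were 6 and 5 to 6, but leaving out a line cannot undo a separation. Nor can it turn the sign of the level difference, since the lines of the 2 groups did not overlap. On sites with 10 reads in all 4 lines, 4 density classes were lower and 1 was higher. The 7 separated outer flank shares became 6 to 8 under all alternatives.

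The 1107 context calls became 552 with a minimum of 10 reads, 411 on sites covered in all 4 lines, 105 with a quasi-binomial regression, 703 without centring, 1111 with the replicate block and 786 to 1258 with a line left out. Of the 1107, 1063 of 1085 still tested kept their sign with 10 reads, and 782 of 1107 without centring. These signs come from the lines that gave the calls, so they are not a separate test. The 900 calls within inner cores became 116 with 10 reads, 0 on shared sites, 515 with summed reads, 12 with the quasi-binomial regression, 728 with the block, and 0 to 1078 with a line left out (0 without either N656I line). Tiles gave 5 calls without centring and 0 to 3958 with a line left out, and gene bodies 0 to 1079. The calls with a line left out all came without WT replicate 1, where WT replicate 2, with few sites, stands alone and is assumed to vary like the N656I lines. The replicate block also ended the calls of ccgCGtcg and attCGatg within inner cores, and changed no other call of a named context. The correlation with the DNMT3A changes was -0.31, -0.22 with the WT sets exchanged, and -0.35 to -0.25 with a line left out. The cause of these shifts was not tested.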

Other observations

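Across the 2079 contexts, the change from WT DNMT3B (second set) to DNMT3A and the change from WT DNMT3B (first set) to N656I, which share no line, had a Pearson's r of -0.31 and a Spearman's rho of -0.33. The study lists the DNMT3A lines with the first WT set, so the DNMT3A values set against the second WT set cross its experiments. With the WT sets exchanged, Pearson's r was -0.22. Contexts share libraries and base composition and are not replicates, so this is a description without a test. Contexts that were relatively more methylated by DNMT3A thus tended to be less methylated by N656I. The tendency was weak and did not hold for each sequence. At agCGct the ratio of DNMT3A to WT DNMT3B (second set) was 8.82, but at aaCGtt, which had the lowest ratio of N656I to WT, it was 2.68, against 2.70 over all sites.

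The pair of bases at distances 2 and 3 after the CpG moved with the nearer base. The ratio of N656I to WT was lowest with T at both positions, 0.616, where the N656I lines had 9.54% and 7.14% and the WT lines 14% and 13.1%. It was highest with G and then T, 0.988, with 16.9% and 13.04% against 15.6% and 14.8%, and against the second WT set, with 13.02% and 11.98%, this ratio was 1.199 and both N656I lines were higher.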
